A study of Homo sapiens with 12 samples.

Results

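The 10 genes described here are a set of glycolysis and hypoxia response genes, *SLC2A1*, *HK2*, *PFKFB3*, *PFKFB4*, *PGK1*, *ENO1*, *LDHA*, *PDK1*, *CA9* and *NDRG1*. They were taken by name from both deposited count tables and joined by Ensembl identifier. They are 10 of the 30984 genes listed for KYSE30 and of the 78691 listed for U138MG, and 30358 genes are in both tables. The study asked how blocking PTDSS1, an enzyme that makes phosphatidylserine, alters gene expression in cultured human cancer cells. KYSE30 is an esophageal squamous cell carcinoma line, and U138MG is a line labelled as glioblastoma, both labelled wild type. Each line received either 100 nM PTDSS1i, a small-molecule inhibitor of PTDSS1, or the solvent DMSO alone for 48 h, and poly-A RNA was sequenced from 3 libraries in each of the 4 groups, 12 in all. The labels name no low-oxygen treatment. One inhibitor at 1 dose and 1 time was used, and each labelled tumour type is represented by 1 line.

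Glycolysis breaks glucose down to pyruvate in the cytosol, and tumour cells often run it fast and turn the pyruvate into lactate. When oxygen falls, the prolyl hydroxylases stop marking HIF-1α and HIF-2α for destruction by VHL, and the HIF proteins with their partner ARNT bind hypoxia response elements and switch on genes for glucose uptake, glycolytic enzymes, lactate export, pH control and blood vessel growth. Several of these genes also respond to other factors, among them MYC and the stress factor ATF4. HIF-1α is controlled mostly at the protein level, which RNA counts do not show.

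The libraries held between 18800932 and 26514658 counts, and CPM below are counts scaled to a common library total. Squamous markers identified the KYSE30 libraries only in part, since *TP63* and *CDH1* were at 98.2 ± 7.41 and 514 ± 25.5 CPM in DMSO (SD, n = 3) while *KRT5* was at 0.0608 ± 0.0672. In the libraries labelled U138MG, the DMSO levels were 1470 ± 83.4 CPM for *KRT5* and 4861 ± 330 for *KRT15* (SD, n = 3), both keratins of squamous epithelium. *KRT14*, a further keratin on the squamous list, was low there at 0.198 ± 0.147 CPM. The glial markers *OLIG2* and *S100B* had 0 counts in all 6 of them, *VIM* was at 0.206 ± 0.0662 CPM and *GFAP* at 2.36 ± 0.183. *SOX2*, a stem cell factor found in glioma and squamous carcinoma, fell from 38.9 ± 1.89 to 4.29 ± 0.431 CPM, and *NES* rose from 0.556 ± 0.127 to 2.05 ± 0.613. The *KRT5* and *KRT15* values and the absent or low glial markers go against the glioblastoma label. The name U138MG is therefore used below only as the label of these libraries. Summed over the 8 squamous markers, they held 7190 to 8008 CPM with DMSO and 2829 to 2972 with PTDSS1i, with 4 markers lower, 3 higher and 1 not tested. The same sum in KYSE30 was 1139 to 1169 CPM with DMSO and 1690 to 1699 with PTDSS1i. The 8 glial markers summed to 443 to 454 CPM with DMSO and 692 to 715 with PTDSS1i in U138MG, of which *CD44* was 406 ± 5.67 and 692 ± 13.2. Only 6 of the 8 were listed for KYSE30, without *OLIG2* and *S100B*. Those 6 summed to 604 to 656 CPM with DMSO and 1047 to 1072 with PTDSS1i, also mostly *CD44*. *PTPRC*, the leukocyte marker, was at most 0.372 CPM in all 12 libraries, and the fibroblast markers summed to between 10.0 and 56.7 CPM. The part of these marker changes in the results below was not tested. The labels give each line a batch of its own and do not say what a batch was, so the batch cannot be told apart from the line. In bulk RNA, a change in the share of cells of one kind and a change in RNA per cell cannot be told apart either.

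Coordinates are on GRCh38 (hg38), and gene spans are those of GENCODE v29. Upstream sequence is shown where the core ACGTG of a hypoxia response element precedes a RefSeq start site and any exon in its 250-base window. The element is the motif bound by HIF. RefSeq start sites on GRCh38.p14 gave 13 windows of 250 bases for 9 of the members. The windows were searched on both strands for the core ACGTG, for its variant GCGTG, for the E-box CACGTG bound by MYC and related factors, which contains ACGTG, and for the ATF4 composite element TGATGNAA. The core ACGTG was in 7 of the 13 windows and in 18.5% of all 35116 RefSeq windows of this length. GCGTG was in 7 of the 13 and in 32.2% of all, and CACGTG was in 3 of the 13 and in 6.34% of all. TGATGNAA was in 0 of the 13 and in 3.14% of all. A match is only a run of letters and not a measured binding site. The stretches below run 5′ to 3′ towards the start site and have matches to any of these motifs on either strand in capitals. They stop at the start site or at the first base in the window that GENCODE v29 places in an exon of the same gene. The *HK2* stretch at chr2:74834920-74835169 and those of *PFKFB3* and *PGK1* lie inside the GENCODE v29 spans of their genes, not ahead of them.
HK2, chr2:74833877-74833980, plus strand: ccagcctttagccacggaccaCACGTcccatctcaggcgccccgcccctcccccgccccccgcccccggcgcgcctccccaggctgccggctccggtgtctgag
HK2, chr2:74834920-74835169, plus strand: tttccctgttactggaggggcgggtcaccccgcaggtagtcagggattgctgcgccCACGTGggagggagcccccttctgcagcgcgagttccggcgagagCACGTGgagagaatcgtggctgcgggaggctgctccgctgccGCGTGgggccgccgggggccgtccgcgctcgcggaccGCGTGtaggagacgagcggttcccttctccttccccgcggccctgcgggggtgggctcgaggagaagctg
PFKFB3, chr10:6202682-6202865, plus strand: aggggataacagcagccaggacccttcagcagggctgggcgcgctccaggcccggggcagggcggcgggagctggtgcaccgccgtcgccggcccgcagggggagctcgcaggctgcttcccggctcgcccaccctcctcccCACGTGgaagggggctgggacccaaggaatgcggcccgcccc
LDHA, chr11:18394313-18394387, plus strand: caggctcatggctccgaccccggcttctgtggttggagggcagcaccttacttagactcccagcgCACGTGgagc
PGK1, chrX:78103998-78104173, plus strand: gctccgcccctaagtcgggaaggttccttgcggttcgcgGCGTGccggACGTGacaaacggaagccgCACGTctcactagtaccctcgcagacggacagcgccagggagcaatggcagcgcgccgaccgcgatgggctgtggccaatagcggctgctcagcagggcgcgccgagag
The second of the *HK2* stretches carries a pair of E-boxes, the upstream *LDHA* stretch carries 1, and the *PGK1* stretch carries 2 ACGTG cores and 1 GCGTG. *HK2* and *PGK1* RNA was higher after PTDSS1i in both lines. *PFKFB3*, whose stretch also carries an E-box, passed the test in neither line. *ENO1* RNA was higher in both lines as well, and its window held 2 GCGTG cores but neither ACGTG nor CACGTG. Among the windows not shown, a *PDK1* window held 2 ACGTG cores and the *CA9* window held 1. The *SLC2A1* window held no match to any of the motifs, and *NDRG1* had no window. A link between these letters and the RNA changes was not tested.

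In KYSE30 cells, 8 of the 9 tested members were higher after PTDSS1i, none was lower, and *PFKFB3* did not pass. The changes ran from 1.22-fold for *SLC2A1*, the main glucose importer, to 8.61-fold for *NDRG1*, a stress and hypoxia marker. For comparison, edgeR's quasi-likelihood test called 30.1% of all 16389 tested genes higher and 32.0% of them lower, with 0.05 as the limit for the adjusted p. Beyond a log2 fold change of 1 were *PFKFB4*, *LDHA* and *NDRG1*, 3 of 9, against 6.40% of all tested genes. For the 8 genes that rose, every PTDSS1i library lay above every DMSO library, and 66.3% of all tested genes had groups that did not overlap in either direction. The median log2 fold change was 0.94 over the 9 members and -0.03 over all tested genes. In the libraries labelled U138MG, *HK2*, *PGK1* and *ENO1* were higher, *SLC2A1* was lower, and 6 members did not pass. Among all 17666 tested genes there, 33.9% were higher and 33.6% lower. No member passed a log2 fold change of 1 there, against 8.19% of all genes on the higher side, and groups did not overlap for 4 of 10 members against 71.4% of all genes. The median log2 fold change was 0.14 over the 10 members and -0.03 over all tested genes. The members' median turned to -0.0085 with library size alone and -0.0083 with upper-quartile factors, and it was 0.27 without DMSO replicate 2 and 0.07 without DMSO replicate 3. With library size alone in place of TMM factors, the median of all genes moved to -0.13 in KYSE30 and -0.17 in U138MG, and higher and lower calls went from 4927 and 5238 to 3932 and 6460 in KYSE30 and from 5989 and 5930 to 4533 and 7694 in U138MG. The count of 3 higher members in U138MG became 5 without DMSO replicate 2, and it became 7, with *SLC2A1* still lower, when DMSO replicate 2 and PTDSS1i replicate 3 were both left out, a choice made after seeing the data.

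**Figure D1:**
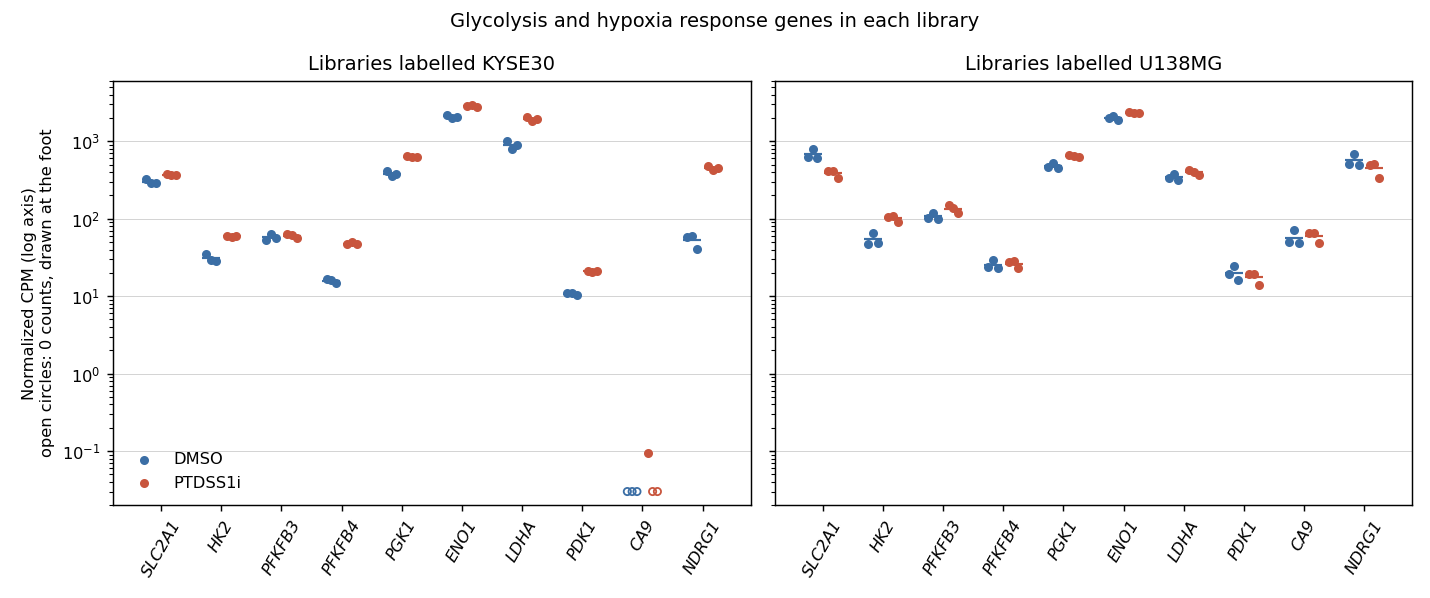
Normalized CPM (log axis) of the 10 genes in each of the 12 libraries, with DMSO in blue, PTDSS1i in red and bars at the group means. In KYSE30 the red points lie above the blue points for all genes but *PFKFB3* and *CA9*, whereas in U138MG the groups overlap for 6 of 10 genes and *SLC2A1* is lower with PTDSS1i.

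**Figure D2:**
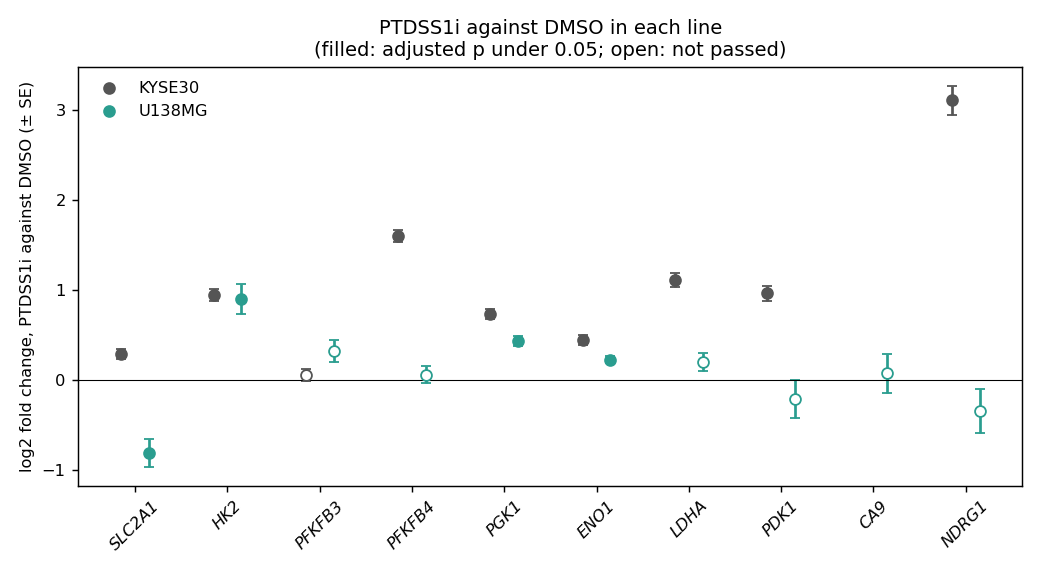
Log2 fold change of each gene after PTDSS1i with its standard error in each line, filled where the adjusted p was under 0.05. *HK2* had nearly the same value in both lines, 0.94 and 0.90, while *NDRG1* had 3.11 in KYSE30 and -0.34 in U138MG, and *CA9* was not tested in KYSE30.

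The products of *SLC2A1* and *HK2* act where glucose enters a cell and is first phosphorylated. *SLC2A1* (ENSG00000117394, chr1:42925375-42959176, minus strand) encodes GLUT1, the main glucose importer of most cultured cells. Its normalized CPM (CPM after TMM scaling, which corrects library size for composition, in replicate order throughout) in KYSE30 were 323, 290 and 292 under DMSO and 374, 366 and 363 under PTDSS1i. The groups were apart, and the rise of 0.29 on the log2 scale (SE 0.053) passed with an adjusted p of 7.31e-05 from edgeR's quasi-likelihood test. The U138MG libraries had 631, 787 and 617 with DMSO and 417, 413 and 332 with PTDSS1i. The groups were apart in the opposite direction, with a log2 fold change of -0.81 (SE 0.15, adjusted p = 0.00915 from the same edgeR test). Of the members, *SLC2A1* was the only one to pass in opposite directions in the 2 lines, and the difference between the lines was -1.13 (SE 0.16, adjusted p = 2.41e-04 from edgeR's interaction test). Its paralog *SLC2A3*, which encodes GLUT3, had 0 counts in every U138MG library. In KYSE30 *SLC2A3* was at 13.0 ± 6.65 normalized CPM with DMSO and 5.37 ± 0.680 with PTDSS1i (SD, n = 3) and did not pass (adjusted p = 0.0699, edgeR), but it was lower without DMSO replicate 2 (log2 fold change -0.80, adjusted p = 1.25e-04) or without DMSO replicate 1 (adjusted p = 0.0278), and also in DESeq2 (adjusted p = 0.00767). *SLC2A4*, the insulin-responsive importer GLUT4, was lower in U138MG (6.08 ± 0.597 to 2.48 ± 0.459 normalized CPM, log2 fold change -1.29).

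*HK2* (ENSG00000159399, chr2:74833981-74893359, plus strand) encodes hexokinase 2, which phosphorylates glucose in the first step of glycolysis and can sit on mitochondria. With DMSO, the KYSE30 libraries had 35.3, 29.2 and 28.3 normalized CPM, and with PTDSS1i they had 59.5, 58.4 and 60.6. In U138MG the values were 47.1, 66.1 and 49.3 with DMSO and 105, 109 and 90.4 with PTDSS1i. The groups did not overlap in either line. The log2 fold changes of 0.94 (SE 0.072) and 0.90 (SE 0.17) both passed, with adjusted p of 2.52e-10 and 0.00873 from edgeR. Their difference was -0.08 (SE 0.20) and did not pass (adjusted p = 0.790, edgeR interaction test). The widely expressed *HK1* did not pass in KYSE30, where it passed as lower with library size alone (-0.18, adjusted p = 0.00638, edgeR), and rose from 199 ± 8.85 to 246 ± 5.19 normalized CPM in U138MG (log2 fold change 0.31). *HKDC1*, a further hexokinase, rose from 0.359 ± 0.209 to 13.6 ± 0.808 in U138MG, a log2 fold change of 5.26 (SE 0.21, adjusted p = 7.49e-19 from edgeR), and was too low to test in KYSE30.

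*PFKFB3* and *PFKFB4* encode enzymes that make and break fructose 2,6-bisphosphate, the strongest activator of phosphofructokinase-1. *PFKFB3* (ENSG00000170525, chr10:6144934-6254644, plus strand), which mostly makes it, had 53.6, 64.1 and 56.5 normalized CPM with DMSO in KYSE30 and 62.8, 61.7 and 57.0 with PTDSS1i. The U138MG values were 103, 120 and 98.2 with DMSO and 148, 137 and 119 with PTDSS1i. The groups overlapped in both lines, in U138MG through 1 DMSO library, replicate 2, at 120 and 1 PTDSS1i library, replicate 3, at 119. The log2 fold changes were 0.06 (SE 0.066, adjusted p = 0.456, edgeR) in KYSE30 and 0.33 (SE 0.12, adjusted p = 0.0757) in U138MG. Without DMSO replicate 2 the U138MG value was 0.42 and passed (adjusted p = 0.0252), and without PTDSS1i replicate 3 it was 0.42 and passed too (adjusted p = 0.0213, edgeR).

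*PFKFB4* (ENSG00000114268, chr3:48517684-48562015, minus strand) had 16.6, 16.2 and 14.6 normalized CPM with DMSO in KYSE30 and 46.8, 50.0 and 46.8 with PTDSS1i. That 3.03-fold rise, with an interval of 2.75 to 3.35 at 2 standard errors, was the second largest among the members there (log2 fold change 1.60, SE 0.071, adjusted p = 2.33e-14, edgeR). In U138MG the values were 23.5, 29.2 and 22.9 with DMSO and 27.5, 28.2 and 23.4 with PTDSS1i, and the groups overlapped (log2 fold change 0.06, SE 0.097, adjusted p = 0.610, edgeR). The effect differed between the lines by -1.58 (SE 0.12, adjusted p = 8.42e-12, edgeR interaction test). The paralog *PFKFB2* passed as higher in both lines, by 0.61 in KYSE30 and by 1.61 in U138MG, where it went from 38.7 ± 3.28 to 119 ± 3.23 normalized CPM (SD, n = 3). *PFKFB1* was too low to test in either line. *TIGAR*, whose product removes fructose 2,6-bisphosphate, was higher in both lines, with log2 fold changes of 1.25 and 1.63.

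The later steps are represented by *PGK1*, which encodes the first ATP-yielding enzyme of glycolysis, by *ENO1*, which encodes the main enolase, and by *LDHA*, which encodes the muscle-type subunit of lactate dehydrogenase. *PGK1* (ENSG00000102144, chrX:77910739-78129296, plus strand) had 411, 360 and 377 normalized CPM with DMSO in KYSE30 and 647, 626 and 634 with PTDSS1i. The U138MG libraries held 463, 523 and 452 with DMSO and 674, 653 and 619 with PTDSS1i. The treated libraries were above the controls with no overlap in either line. The log2 fold changes were 0.73 (SE 0.055, adjusted p = 1.69e-10) and 0.44 (SE 0.054, adjusted p = 3.68e-05, edgeR), and they differed by -0.33 (SE 0.075, adjusted p = 4.60e-04, interaction test).

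*ENO1* (ENSG00000074800, chr1:8861000-8879250, minus strand) was the most abundant member per kilobase. It had 2204, 2016 and 2086 normalized CPM with DMSO in KYSE30 and 2858, 2904 and 2797 with PTDSS1i. Values in U138MG were 1986, 2114 and 1906 with DMSO and 2397, 2323 and 2300 with PTDSS1i. No libraries overlapped, and the rises were small, 1.36-fold and 1.17-fold (log2 fold change 0.44 with SE 0.056 and adjusted p = 5.20e-07, and 0.23 with SE 0.037 and adjusted p = 4.67e-06, edgeR). The U138MG call depends on the scaling: with upper-quartile factors the log2 fold change was 0.08 and did not pass (adjusted p = 0.0685), and with library size alone it was 0.08 and passed (adjusted p = 0.0493). *ENO2*, the neuronal enolase, was far lower per library and rose more, from 1.61 ± 0.363 to 6.43 ± 0.904 normalized CPM in KYSE30 (log2 fold change 2.01) and from 45.3 ± 5.24 to 94.9 ± 8.49 in U138MG (log2 fold change 1.06). *ENO3*, the muscle enolase, did not pass in either line.

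*LDHA* (ENSG00000134333, chr11:18394388-18408425, plus strand) had 1017, 788 and 890 normalized CPM with DMSO in KYSE30. With PTDSS1i it had 2082, 1830 and 1915. All treated libraries were above all controls, a 2.16-fold rise with an interval of 1.93 to 2.42 at 2 standard errors (log2 fold change 1.11, SE 0.082, adjusted p = 2.91e-08, edgeR). U138MG had 334, 382 and 315 with DMSO and 423, 397 and 367 with PTDSS1i. The groups overlapped through DMSO replicate 2, the log2 fold change was 0.20 (SE 0.096) and the adjusted p was 0.127, whereas without that library it was 0.28 and passed (adjusted p = 0.00120, edgeR). The effect differed between the lines by -0.95 (SE 0.15, adjusted p = 4.95e-04, interaction test). *LDHB*, which encodes the heart-type subunit, was lower in both lines, with log2 fold changes of -0.87 in KYSE30 and -0.18 in U138MG. Its DMSO level was 7.17 ± 1.53 normalized CPM in KYSE30 and 805 ± 19.3 in U138MG, so the libraries of the 2 lines held the 2 subunit genes in different proportion, though the tables were normalized separately. *LDHC*, the testis subunit, passed as lower in U138MG but had only 2 to 5 counts in each PTDSS1i library.

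*PDK1* (ENSG00000152256, chr2:172555373-172608669, plus strand) encodes a kinase that shuts the pyruvate dehydrogenase complex. In KYSE30 it had 11.0, 10.9 and 10.3 normalized CPM with DMSO and 21.1, 20.3 and 21.4 with PTDSS1i. The rise was 1.95-fold with groups apart (log2 fold change 0.96, SE 0.083, adjusted p = 1.53e-09, edgeR). U138MG libraries had 19.4, 24.6 and 16.4 with DMSO and 19.2, 19.2 and 14.0 with PTDSS1i. These groups overlapped, with a log2 fold change of -0.21 (SE 0.21, adjusted p = 0.429), and the effect differed between the lines by -1.21 (SE 0.20, adjusted p = 1.30e-04, interaction test). Its paralogs did not move as one: *PDK2* was lower in both lines (log2 fold change -0.24 and -1.20), *PDK3* was higher in U138MG (from 72.5 ± 2.12 to 146 ± 4.04 normalized CPM), and *PDK4* was higher in KYSE30 (0.47, adjusted p = 0.0121, edgeR) and not tested in U138MG. The *PDK4* call was lost without DMSO replicate 1, where the adjusted p was 0.05001, and with library size alone (log2 fold change 0.36, adjusted p = 0.0559, edgeR).

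*CA9* (ENSG00000107159, chr9:35673856-35681159, plus strand) encodes carbonic anhydrase IX, a cell-surface enzyme that regulates pH and a common marker of HIF-1 activity. In KYSE30 it had 0 counts in all 3 DMSO libraries and 2, 0 and 0 counts in the PTDSS1i libraries, below the 3 counts taken as the limit, so neither expression nor a change was detectable at this depth. In U138MG it had 50.4, 70.6 and 48.5 normalized CPM with DMSO and 64.8, 65.6 and 49.0 with PTDSS1i. The groups overlapped (log2 fold change 0.07, SE 0.22, adjusted p = 0.787, edgeR). Against the limit of 3 counts in the smallest KYSE30 control library, which is 0.160 CPM, the U138MG controls at 59.3 CPM were at least 372-fold higher. *CA12*, a second tumour-associated carbonic anhydrase, was also near 0 in KYSE30, and it rose from 15.4 ± 1.27 to 153 ± 7.04 normalized CPM in U138MG (log2 fold change 3.31, SE 0.055, adjusted p = 2.72e-27, edgeR). Its KYSE30 level was 0.0163 ± 0.0282 with DMSO and 0 with PTDSS1i.

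*NDRG1* (ENSG00000104419) encodes a cytoplasmic protein induced by hypoxia, metal chelation and differentiation. In KYSE30 it had 57.7, 60.7 and 41.0 normalized CPM with DMSO and 486, 426 and 456 with PTDSS1i. Every treated library was above every control, and the 8.61-fold rise, with an interval of 6.86 to 10.8 at 2 standard errors, was the largest among the members (log2 fold change 3.11, SE 0.16, adjusted p = 2.50e-05, edgeR). In U138MG it had 511, 692 and 500 with DMSO and 501, 510 and 333 with PTDSS1i. The untreated libraries of U138MG thus had values above those of the treated KYSE30 libraries, in tables that were normalized separately. The groups overlapped (log2 fold change -0.34, SE 0.24, adjusted p = 0.281), and the effect differed between the lines by -3.49 (SE 0.31, adjusted p = 1.24e-05, edgeR interaction test). Among its paralogs *NDRG4* was higher in both lines (log2 fold change 2.10 and 1.22), while *NDRG2* and *NDRG3* were lower in U138MG (-0.68 and -1.07) and did not pass in KYSE30, though *NDRG2* passed as lower there with library size alone (-0.44, adjusted p = 0.0428, edgeR).

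The lines also differed before treatment. With DMSO, 9 of the 10 members differed between U138MG and KYSE30, against 85.1% of the 18405 genes that passed the filter over all 12 libraries. In U138MG the level was higher by 1.15 on the log2 scale for *SLC2A1*, 0.79 for *HK2*, 0.87 for *PFKFB3*, 0.66 for *PFKFB4*, 0.30 for *PGK1*, 0.89 for *PDK1* and 3.40 for *NDRG1*. *LDHA* was the only member lower there, by -1.40 (SE 0.11, adjusted p = 7.30e-07, edgeR), and *ENO1* did not pass (-0.09, adjusted p = 0.0783). The PTDSS1i effect itself differed for 7 of the 10 members, against 49.9% of those genes. In all 7, *SLC2A1*, *PFKFB4*, *LDHA*, *PGK1*, *ENO1*, *PDK1* and *NDRG1*, the U138MG value was the lower, a direction not counted over all genes. A difference was not shown for *HK2*, *PFKFB3* (difference 0.23, SE 0.14, adjusted p = 0.208, edgeR) or *CA9*, for which KYSE30 gives no fold.

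Per kilobase of annotated exon, the order of the members in KYSE30 DMSO libraries was *ENO1* (398 ± 18.0 normalized CPM per kb, SD, n = 3), *LDHA* (145 ± 18.4), *PGK1* (69.4 ± 4.74), *SLC2A1* (63.8 ± 3.86), *PFKFB3* (9.50 ± 0.889), *NDRG1* (5.41 ± 1.08), *HK2* (5.10 ± 0.624), *PFKFB4* (2.59 ± 0.175), *PDK1* (0.722 ± 0.0267) and *CA9* at 0. The libraries of *PGK1* and *SLC2A1*, and those of *NDRG1* and *HK2*, overlapped, so these neighbours were not separated. With PTDSS1i, *NDRG1* reached 46.4 ± 3.02 per kb, between *SLC2A1* at 77.9 ± 1.23 and *PFKFB3* at 9.90 ± 0.505. In U138MG DMSO libraries the order was *ENO1* (379 ± 19.9), *SLC2A1* (144 ± 20), *PGK1* (86.9 ± 6.88), *NDRG1* (57.8 ± 11.0), *LDHA* (55.4 ± 5.55), *CA9* (33.8 ± 7.33), *PFKFB3* (17.5 ± 1.87), *HK2* (8.93 ± 1.72), *PFKFB4* (4.13 ± 0.566) and *PDK1* (1.35 ± 0.281), and only *NDRG1* and *LDHA* overlapped. Exon lengths are those of GENCODE v29, which is not known to be the annotation used for counting. The exons of *CA9* share 643 bases with *ARHGEF39* on the opposite strand, those of *PDK1* share 445 with a gene on the opposite strand, those of *PFKFB4* share 289 with *UCN2*, and those of *PGK1* share 97 with *ATP7A*, and how the counting treated such reads is not given in the sources used here. Near copies of *LDHA*, a gene with many pseudogenes, held 0.508% as many counts as *LDHA* itself in U138MG and 0.0624% in KYSE30, so reads split to listed copies were few.

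Members shared a high and a low library in U138MG and, for 7 of 9, a high control library in KYSE30. In U138MG, DMSO replicate 2 was the highest of its group for all 10 members, and PTDSS1i replicate 3 was the lowest of its group for all 10. Over all 17666 tested genes, DMSO replicate 2 was highest for 34.9% and PTDSS1i replicate 3 was lowest for 35.3%. DMSO replicate 2 lay above the mean of the other controls by a median of 0.33 on the log2 scale over the members, from 0.12 for *ENO1* to 0.51 for *CA9*. PTDSS1i replicate 3 lay below the other treated libraries by a median of 0.26, from 0.04 for *ENO1* to 0.60 for *NDRG1*. Among the 30 other hypoxia-induced genes tested, DMSO replicate 2 was highest for 24 and PTDSS1i replicate 3 was lowest for 24. In KYSE30, DMSO replicate 1 was highest for 7 of 9 members, against 35.5% of all genes. No control there was lowest for most members: DMSO replicates 2 and 3 were each lowest for 4, against 34.7% and 29.5% of all genes. DMSO replicate 3 lay below the mean of the other controls for 9 of 9, with a median offset of -0.07 on the log2 scale. The share of all genes below that mean was not counted. The coefficient of variation among U138MG controls ranged from 5.25% to 21.7% over the members, with a median of 13.8%, against 6.83% in KYSE30 controls and 2.78% in KYSE30 treated libraries. The labels name no difference between the replicates, and what moved with these libraries was not tested. With both libraries left out, *PFKFB3*, *PFKFB4*, *LDHA* and *CA9* passed as higher as well, with log2 fold changes of 0.50, 0.26, 0.34 and 0.40, *SLC2A1* was at -0.59, and *NDRG1* was at 0.0022 (adjusted p = 0.960, edgeR).

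**Figure D3:**
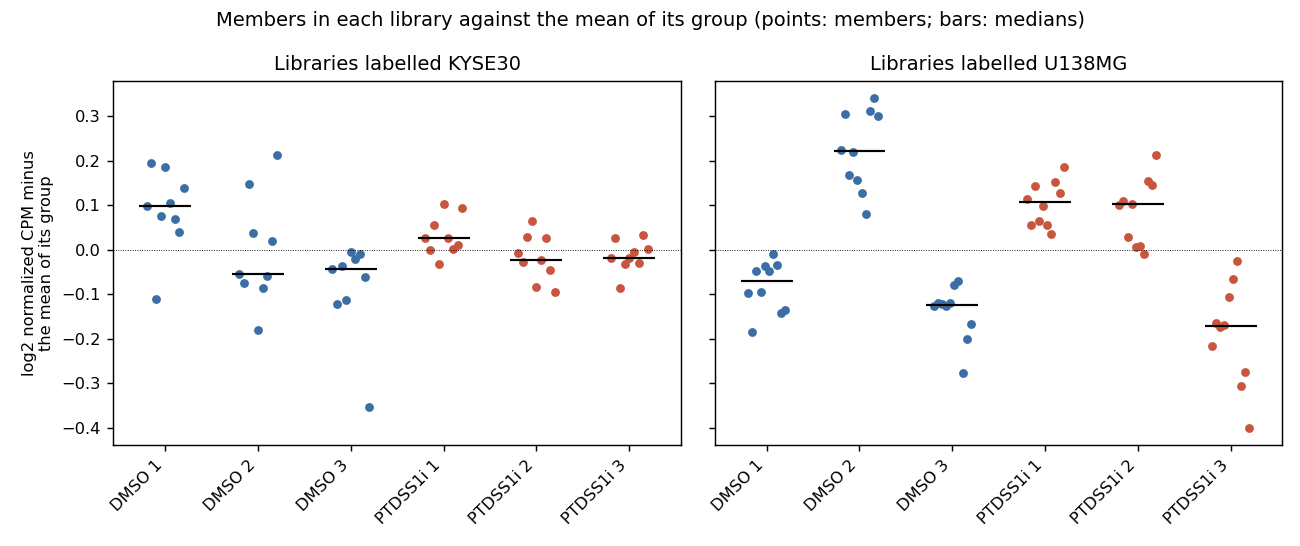
Log2 normalized CPM of each tested member minus the mean of its group, by library, with a bar at the median over members. In U138MG every member lies above 0 in DMSO replicate 2 and below 0 in PTDSS1i replicate 3. The spread between libraries is smaller in KYSE30, except among the controls for *LDHA* and *NDRG1*.

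Around the members, 13 of 21 tested genes of glucose uptake and the glycolytic enzymes were higher in KYSE30 and 4 lower, with a median log2 fold change of 0.31 (12 higher and 6 lower with library size alone), and in U138MG 13 of 20 were higher and 5 lower, with a median of 0.21. With library size alone the U138MG list had 10 higher and 6 lower, with upper-quartile factors 9 higher and 6 lower, and its median was 0.07 in both. Without the members, the counts were 8 higher and 4 lower of 16, and 10 higher and 4 lower of 15. Of all tested genes, 30.1% were higher and 32.0% lower in KYSE30, and 33.9% and 33.6% in U138MG. These shares also stand beside the counts of the lists that follow. The exporter of lactate MCT4, encoded by *SLC16A3*, rose in both lines, from 807 ± 75.9 to 1589 ± 27.0 normalized CPM in KYSE30 and from 44.6 ± 0.392 to 98.0 ± 2.97 in U138MG (log2 fold change 0.98 and 1.14). *PFKL*, the liver-type phosphofructokinase, fell in U138MG by 0.60 on the log2 scale (adjusted p = 2.31e-14, edgeR) and did not pass in KYSE30. *GAPDH*, the reference gene of the RT-qPCR in the study, was higher in KYSE30 by 0.34 (SE 0.066, adjusted p = 1.26e-04, edgeR). In U138MG it was higher by 0.14 (SE 0.039, adjusted p = 0.00231), but with library size alone or upper-quartile factors it was at -0.0023 and -0.0018 and did not pass.

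The switches of glycolytic and pyruvate flux gave 8 higher and 2 lower of 14 tested genes in KYSE30, with a median of 0.43, and 5 higher and 3 lower of 13 in U138MG, with a median of 0.06. With library size alone or with upper-quartile factors, 5 were lower in U138MG and the median turned to -0.09. It was 0.18 without DMSO replicate 2, 0.15 without PTDSS1i replicate 3 and 0.01 without DMSO replicate 1. *PDHA1*, the catalytic subunit that PDK1 inhibits, fell in KYSE30 by 0.39 (adjusted p = 1.13e-05, edgeR), from 49.3 ± 2.19 to 37.6 ± 1.79 normalized CPM. In U138MG it had 0.02 and did not pass, but passed as lower with library size alone or upper-quartile factors (-0.13 in both). *TXNIP*, an inhibitor of glucose uptake that is switched on by glucose metabolites, was lower in U138MG, from 1066 ± 114 to 728 ± 14.3 (log2 fold change -0.55, adjusted p = 0.00173, edgeR). In KYSE30 it did not pass (201 ± 64.4 and 262 ± 6.95, adjusted p = 0.267) but passed as higher without DMSO replicate 2 (log2 fold change 0.65, adjusted p = 0.00593). Of the pentose phosphate pathway, which branches off after hexokinase, 4 genes were higher and 2 lower of 7 in KYSE30 and 5 higher and 1 lower of 7 in U138MG. *PGD* had the largest value in both (0.72 and 1.03), *RPIA* the smallest in KYSE30 (-0.62) and *TKT* the smallest in U138MG (-0.43).

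Among HIF subunits and oxygen sensors, 7 of 10 tested genes were higher and none lower in KYSE30, and 4 were higher and 4 lower in U138MG. With library size alone or upper-quartile factors, 6 were lower in U138MG. *HIF1A* RNA was higher in both lines, from 153 ± 2.40 to 204 ± 5.59 normalized CPM in KYSE30 (log2 fold change 0.41, adjusted p = 2.36e-07) and from 298 ± 20.8 to 879 ± 18.9 in U138MG (1.56, SE 0.041, adjusted p = 1.20e-18, edgeR). *EPAS1*, which encodes HIF-2α, rose in KYSE30 by 0.43, and in U138MG it had 0.02 and did not pass, but passed as lower with library size alone (-0.12, adjusted p = 0.00220) or with upper-quartile factors (-0.12). *EGLN3*, a prolyl hydroxylase gene that HIF itself induces, went from 9.45 ± 2.18 to 31.5 ± 2.43 in KYSE30 (1.75, adjusted p = 1.22e-07, edgeR). In U138MG it had 136 ± 23.2 and 94.9 ± 17.5 (-0.53, adjusted p = 0.0848), and 5 of the alternatives, among them library size alone (adjusted p = 0.0439), passed it as lower. *VHL* was higher in U138MG by 0.27 (adjusted p = 6.10e-06) and in KYSE30 by 0.15 (adjusted p = 0.0246, edgeR), a call lost without DMSO replicate 2, PTDSS1i replicate 1 or PTDSS1i replicate 3, with adjusted p from 0.0777 to 0.138. The KYSE30 call of *VHL* was also lost with library size alone, where the log2 fold change was 0.04 (adjusted p = 0.475, edgeR), and with upper-quartile factors (0.12, adjusted p = 0.0504). *ARNT2*, an alternative HIF partner, rose in U138MG from 0.800 ± 0.0840 to 5.51 ± 0.674 (2.77), and *CITED2*, which competes with HIF for its coactivator, was the lowest there at -0.93. *HIF1AN*, the asparagine hydroxylase, was the smallest in KYSE30 and did not pass.

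Among the hypoxia-induced genes, 25 of 29 tested were higher and none lower in KYSE30, with a median log2 fold change of 0.99, and 14 were beyond 1. In U138MG 15 of 32 were higher and 9 lower, with a median of 0.14, and 7 were beyond 1 and 1 beyond -1. Over all tested genes, 30.1% were higher, 32.0% lower and 6.40% higher beyond 1 in KYSE30. The same shares in U138MG were 33.9%, 33.6% and 8.19%. With library size alone, 24 of the hypoxia-induced genes were higher and 1 lower in KYSE30. In U138MG, 12 were higher and 10 lower with library size alone or upper-quartile factors, and the median turned to -0.0096 and -0.0093. The U138MG median was 0.27 without DMSO replicate 2, 0.23 without PTDSS1i replicate 3 and 0.09 without DMSO replicate 3, and with both DMSO replicate 2 and PTDSS1i replicate 3 left out it was 0.31, with 20 higher and 7 lower. Without *CA9* and *NDRG1* the counts were 24 higher and none lower of 28, and 15 higher and 9 lower of 30. Of the 29 genes tested in both lines, 25 had the lower value in U138MG. The share of all genes with the lower value there was not counted. *VEGFA*, the angiogenic factor, rose in both, from 41.1 ± 4.87 to 182 ± 4.70 normalized CPM in KYSE30 (2.15, SE 0.068, adjusted p = 4.52e-16) and from 194 ± 16.6 to 1337 ± 45.9 in U138MG (2.78, SE 0.056, adjusted p = 5.88e-13, edgeR). *ANGPTL4*, a lipase inhibitor, had the largest value in KYSE30 among genes other than members (3.10) and 2.00 in U138MG. *DDIT4*, an mTORC1 inhibitor that hypoxia and ATF4 both induce, rose by 1.28 and 0.70, and its exons share 847 bases with *DDIT4-AS1* on the opposite strand. *PPFIA4*, a liprin, was higher in KYSE30 (1.66) and lower in U138MG (-1.36, adjusted p = 6.99e-06, edgeR). *PLOD1*, a collagen lysyl hydroxylase, was the smallest in KYSE30 (-0.04) and did not pass, except as lower with library size alone (adjusted p = 0.0202, edgeR). The members' paralogs gave 4 higher and 2 lower of 12 tested in KYSE30 and 7 higher and 6 lower of 15 in U138MG, with medians of -0.03 and 0.31. In KYSE30, 4 of the paralogs were lower with library size alone.

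**Figure D4:**
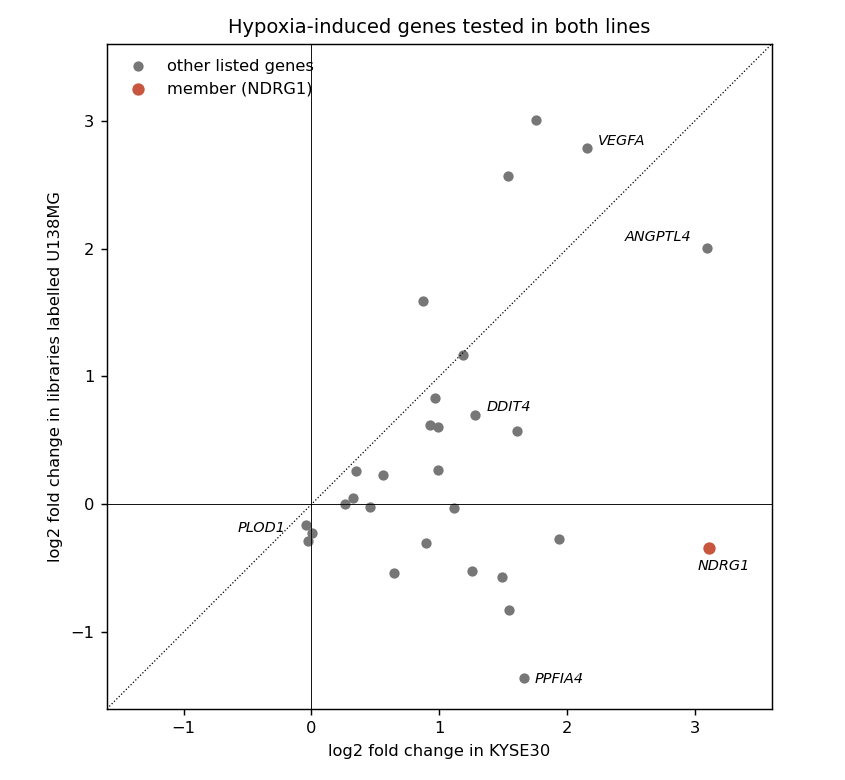
Log2 fold change of the 29 hypoxia-induced genes tested in both lines, KYSE30 on the x axis and U138MG on the y axis, with equality as a dotted line. *VEGFA* is high in both lines, *NDRG1* has 3.11 in KYSE30 and -0.34 in U138MG, and 25 of the points lie below the dotted line.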

How the data were processed

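RNA-seq libraries of KYSE30 and U138MG cells, 3 per line and treatment, were analysed. Per the labels, poly-A RNA was prepared with a TruSeq v2 kit, which does not mark strand, and the submitters' processing notes name Trimmomatic, STAR, featureCounts and hg38. Versions, annotation and strand setting are not given in the sources used here. The deposited values are raw counts per gene, 1 table per line, not normalized by the authors. The labels give the KYSE30 medium for both lines, whereas the study's methods give another for U138MG.

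Genes passed filterByExpr (minimum count 10, minimum total 15), were scaled by TMM and tested within each line with edgeR 4.0.16 (quasi-likelihood) in R 4.3.3. Differences between lines came from 1 fit over all 12 libraries. P-values were adjusted over all tested genes by the Benjamini-Hochberg method, with a threshold of 0.05. Normalized CPM use TMM-scaled library sizes, and marker CPM use plain library sizes. The floor for a gene without counts was 3 counts per library. A single-gene exact permutation test of 3 against 3 cannot go below 0.1 and was not used. Alternatives were library size alone, upper-quartile factors, DESeq2 1.42.0, other filters, a replicate block, both lines fitted together and leaving out each library. On simulated counts with true log2 fold changes of 1 in either direction, edgeR called 185 of 200 changed genes for KYSE30, with 12 false calls among 16168 genes. For U138MG it called 181 of 200 with 15 false calls, and for the interaction 164 of 200 with 15 false calls. The simulation gave every gene the same dispersion, so it does not cover smaller changes or more variable genes.

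Genes besides the members were named by rule: the tested gene of largest and of smallest log2 fold change in each list and line, the paralogs beside the member they resemble, and *GAPDH*, *HIF1A*, *EPAS1*, *VHL*, *EGLN3*, *VEGFA*, *TXNIP* and *DDIT4* in any case. Members and lists were chosen with earlier results of these data known. Same-numbered libraries correlated by at most 0.075 in their deviations from the group means, though in KYSE30 each correlated best with its own number. Whether equal numbers mark a pair is not known, and the main tests used no pairing. No pair of libraries matched within sampling noise.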

Additional observations from a re-analysis of the deposited data

Results flagged for a closer look

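For 7 members the effect of PTDSS1i differed between the lines in edgeR's interaction test, so each is given here as the log2 fold change in U138MG minus that in KYSE30. The difference was -3.49 for *NDRG1*, -1.58 for *PFKFB4*, -1.21 for *PDK1* and -1.13 for *SLC2A1*. It was -0.95 for *LDHA*, -0.33 for *PGK1* and -0.25 for *ENO1*. For *PGK1* and *ENO1* both lines rose and the sizes differed, whereas *SLC2A1* passed in opposite directions. Over all genes in the fit of the 12 libraries, 49.9% differed in this way. The line and the batch named in the labels cannot be told apart.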

How the results depend on the processing

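In KYSE30 the 8 higher members stayed 8 when any 1 library was left out, and 3 had a log2 fold change beyond 1. In U138MG the 3 higher members became 5 with no filter beyond 1 count and 5 with the replicate block, which also gave 2 lower. Leaving out 1 library gave from 3 to 5 higher and 1 lower, with 5 without DMSO replicate 2. Leaving out both DMSO replicate 2 and PTDSS1i replicate 3, chosen after seeing the data, gave 7. Requiring a log2 fold change beyond 1 gave 0 higher and 0 lower. The replicate block passed *PFKFB3*, *LDHA* and *PDK1* in U138MG (adjusted p = 6.01e-04, 0.00170 and 0.0258, edgeR) and the effect difference of *PFKFB3* (adjusted p = 0.0424), passed *SLC2A3* as lower in KYSE30 (-1.21, adjusted p = 6.15e-05) and lost *PLOD1* in U138MG (adjusted p = 0.0596). In KYSE30 each library correlated best with its own number, and in U138MG not. The members that differed in effect numbered from 7 to 8, and in DMSO level from 9 to 10, with 1 library left out. No called member changed sign, whereas *GAPDH* in U138MG, called higher, turned to -0.0023 with library size alone and -0.0018 with upper-quartile factors. Of the members' log2 fold changes, 117 of 117 alternatives in KYSE30 and 125 in U138MG kept their side of the threshold, 14 in U138MG newly passed and 1, *ENO1* with upper-quartile factors, no longer did. List counts changed by over 1.5 times for lower paralogs in KYSE30 (from 2 to 4 with library size alone), for lower flux switches in U138MG (from 3 to 5) and for higher pentose phosphate genes in U138MG (from 5 to 3), the last pair with library size alone or upper-quartile factors. The cause was not tested. Depth limits *CA9* in KYSE30, where 3 counts are the floor.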
